A study of Mus musculus with 32 samples.

Results

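The extracellular matrix genes and matrix proteases of liver and spleen were examined in mice cloned by nuclear transfer. The members were the array rows whose gene symbol belongs to the collagens, laminins, matrix metalloproteinases (Mmp), tissue inhibitors of metalloproteinases (Timp), Adamts proteases, lysyl oxidases, fibulins or thrombospondins, together with Sparc, Fn1, Fbn1, Nid1, Nid2 and Lum. They made 113 rows and 70 genes, of 20794 rows and 9026 named genes on the array, and Fbn1, Nid1 and Lum were not among the rows that could be named. A rule on gene names chose them. The match of rows to names, given below, was picked by the agreement of measured values, and earlier results of these data were known.

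The 4 groups were livers and spleens of cloned wildtype mice and of cloned mice labelled Dll1, with 4 mice in each group. Dll1 encodes Delta-like 1, a membrane-bound ligand of Notch receptors. All were male mice of the strain 129/SvJ aged 18 to 19 weeks, and both organs came from the same mice. Each cloned mouse was hybridised on 2 dual-colour arrays with exchanged dyes, against a pool of conventionally bred mice of its own genotype (Dll1 heterozygotes for the Dll1 clones, wild type for the others). Each value is thus a log2 ratio, likely of clone over pool. The titles name the clone first, no label states the direction, and the opposite reading would reverse every sign given here. Each genotype had its own pool, and the spread within the pool was not measured, so the p-values speak for these clones against these pools. The labels do not tie a clone to a donor nucleus or a cell line, and clones of 1 genotype may share one.

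The extracellular matrix is a mesh of secreted proteins around cells. Fibrillar collagens give it strength, while basement membranes are sheets of collagen IV, laminins, nidogens and proteoglycans under epithelium and endothelium. Lysyl oxidases cross-link collagen and elastin, metalloproteinases and ADAMTS proteases cut matrix proteins, and TIMPs block the metalloproteinases. In the liver, stellate cells make most fibrillar collagen and hepatocytes secrete the plasma form of fibronectin, and in the spleen reticular fibroblasts and sinus endothelium build the matrix that carries the blood cells.

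A ratio gives no level, so the labelled organs could not be checked by the level of their markers, and no gene's level is set against another's here. Of the 70 members, 69 had a value in at least 3 mice in each liver group, 68 in wildtype spleen and 67 in Dll1 spleen. Col26a1 had no mouse with a value on both arrays in either liver group and at most 2 such mice in a spleen group. Thbs1 had 2 mice in wildtype spleen, and Col25a1 and Loxl2 had 2 in Dll1 spleen, and these were not tested there. The median SD between mice of a feature (a gene, or a row without a gene) was 0.087 in wildtype liver and 0.109 in Dll1 liver. It was 0.266 in wildtype spleen and 0.417 in Dll1 spleen, where spots were also missing most often, at 365 to 2859 per array against 59 to 230 in liver. In simulated data of the same spread, a difference of 0.5 was found for 87% of the changed features in wildtype liver and 71% in Dll1 liver, but for 0% in either spleen group. A difference of 1 was found for 44% in wildtype spleen and 0% in Dll1 spleen. For the mean over both genotypes in spleen these shares were 35% at 0.5 and 61% at 1, and for the genotype difference in spleen and both organ differences they were 0% at either size. In this simulation, where only a small part of the features was changed, a difference of 0.5 was thus not found in either spleen group alone. With more changed features these shares could differ.

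Both orientations of the dyes were read as already turned to clone over pool, and the data do not settle this. The mean ratios of both orientations correlated over all features at -0.709 in wildtype liver, -0.251 in Dll1 liver, -0.385 in wildtype spleen and -0.298 in Dll1 spleen. Of the matrix genes, 15 of 70 (21.4%) had the same sign in both orientations in wildtype liver and 30 of 69 (43.5%) in Dll1 liver. The same sign was seen for 22 of 70 (31.4%) in wildtype spleen and 34 of 70 (48.6%) in Dll1 spleen. If the arrays with the clone in Cy3 still had to be turned, 33 of 69 matrix genes (47.8%) would pass an adjusted p of 0.05 in wildtype liver, as would 56.8% of all features. The other groups would then have 0 in Dll1 liver (0.112% of all features), 2 of 68 in wildtype spleen (2.94% against 1.54%) and 0 in Dll1 spleen (0% of all features). Averaging both orientations cancels a dye effect of a probe in the reading used here.

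**Figure D1:**
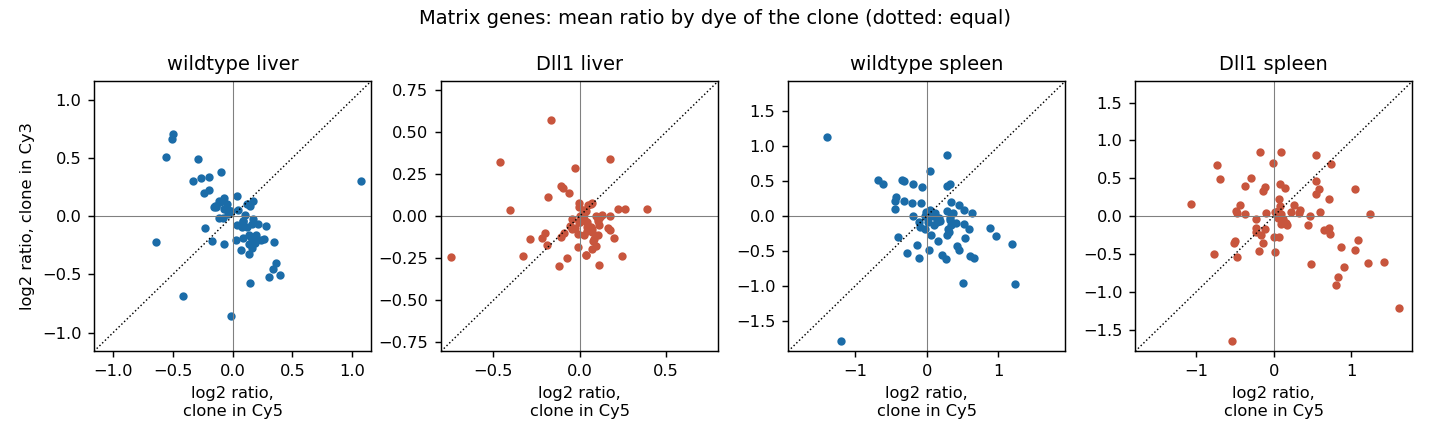
Mean log2 ratio of each matrix gene over the arrays with the clone in Cy5 (horizontal) and in Cy3 (vertical), 1 point per gene, in the 4 groups. Points on the dotted line have equal ratios in both orientations. Most points of wildtype liver lie to the upper left and lower right of 0, and 15 of 70 genes have the same sign in both orientations.

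The gene names carry a limit too. Row n of the table was named by the array position n - 11, since at this offset probes of 1 gene agreed best over the mice among 121 offsets tried (mean agreement 0.0229 over 4986 pairs, next 0.0205, and 5e-04 with names as given). Split into 4 equal blocks of rows, the offset had rank 1 in each of the first 3 blocks and rank 3 in the last. Above position 20000 it ranked 24 of 121, over 332 pairs only. The names of the 11 matrix genes with a row there are therefore tentative. All rows of Lamb1, Lamb3, Mmp7, Mmp12, Thbs1, Adamts4, Adamts5 and Adamts18 lie there, and 1 row each of Lox, Thbs2 and Timp1, which also have rows at lower positions.

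With limma's moderated test of the mouse means against 0 and Benjamini-Hochberg adjustment over all features, 1 of 69 matrix genes passed an adjusted p of 0.05 in wildtype liver, where 0.153% of all features passed. None passed in Dll1 liver, wildtype spleen or Dll1 spleen, where 0% of all features passed. At an unadjusted p of 0.05, 10 of 69 members passed in wildtype liver (4 higher, 6 lower) against 12% of all features, and 6 of 69 in Dll1 liver (3 higher, 3 lower) against 5.71%. In wildtype spleen 5 of 68 passed against 6.15% of features, and in Dll1 spleen 3 of 67 against 4.88%. The members' shares of 14.5%, 8.7%, 7.35% and 4.48% lay near those of all features. In bulk tissue, fewer cells of a type and less RNA per cell cannot be told apart. The median ratio of the members was -0.0025 in wildtype liver, -0.00375 in Dll1 liver, 0.032 in wildtype spleen and 0.0968 in Dll1 spleen, beside 0.0075, -0.0035, 0.0127 and 0.007 for all features. Values above 0 were held by 34 of 69 and 33 of 69 members in the livers. In the spleens these were 40 of 68 (58.8%, all features 53.2%) and 43 of 67 (64.2%, all features 51%).

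Averaged over both genotypes, no member passed the adjusted threshold in either organ. In liver 0.172% of all features did, and 15 of 69 members (21.7%) passed an unadjusted p of 0.05, 5 higher and 10 lower, against 13.2% of features. In spleen 0% of all features passed the adjusted threshold with limma, and 8 of 66 members (12.1%), 7 higher and 1 lower, passed the unadjusted one against 8.18%. Of the 67 genes with a value in all 8 livers Mmp3 lay above 0 in every liver and Timp1 below 0 in every liver. Of the 52 with a value in all 8 spleens, Col4a2, Fbln5, Mmp12 and Sparc lay above 0 in every spleen and none lay below 0 in every spleen. The share of all features with the same sign in all 8 mice was not counted for either organ, so these counts have no background.

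**Figure D2:**
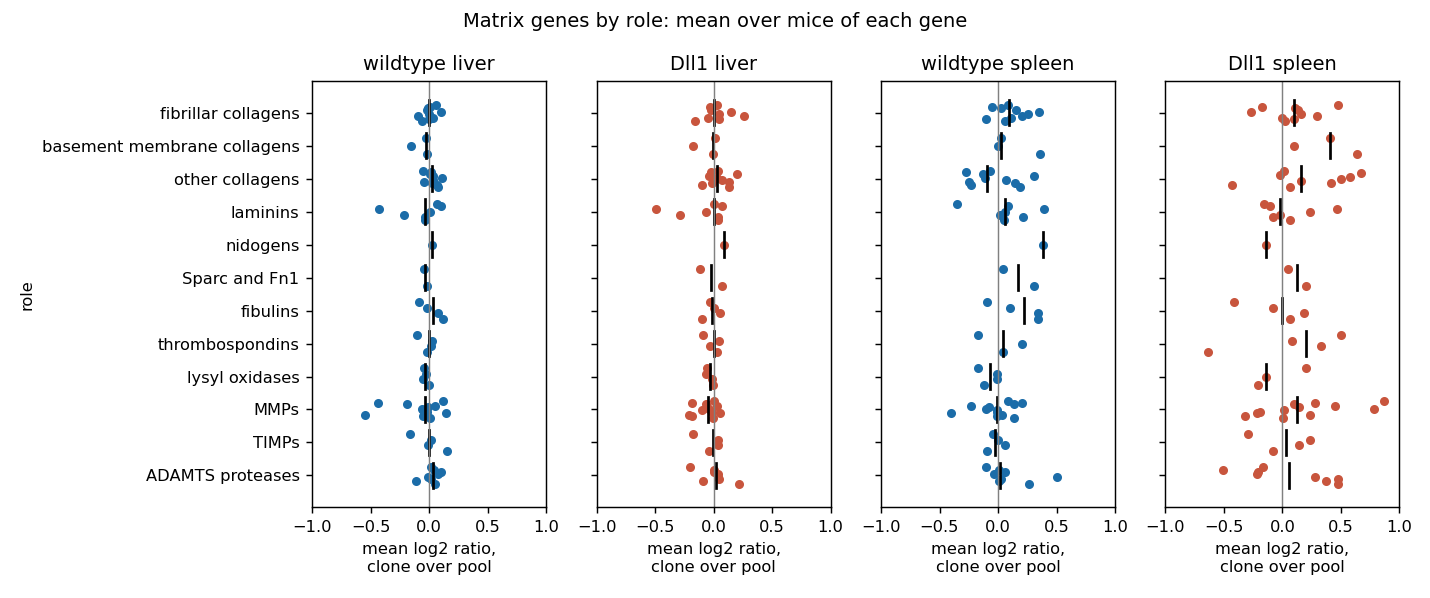
Mean log2 ratio of clone over pool of each matrix gene (points) by role, with the median of the role (black bars), in the 4 groups. Liver values run from -0.55 to 0.15 in wildtype and from -0.49 to 0.26 in Dll1 mice, and spleen values from -0.63 to 0.87 in Dll1 mice.

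Fibrillar collagens form the fibres of connective tissue, and 10 were measured. Their medians were 0.001 in wildtype liver, 0.005 in Dll1 liver, 0.096 in wildtype spleen and 0.103 in Dll1 spleen. Col1a1 and Col1a2 are the chains of collagen I. Col1a1 lay at 0.03, -0.02, -0.04 and -0.01 in the wildtype livers and at 0.01, -0.06, -0.03 and 0.02 in the Dll1 livers. These are averages of 2 probes on either side of 0, at -0.088 ± 0.039 and 0.068 ± 0.035 in wildtype liver. In Dll1 liver the probes lay at -0.048 and 0.018, and in Dll1 spleen at -0.106 and 0.321. Col1a2 averaged -0.02 ± 0.06 (SD, n = 4) in both liver groups. In spleen Col1a1 was 0.02 ± 0.07 in wildtype and 0.11 ± 0.51 in Dll1 mice, where mouse 2 alone lay at 0.84. Col1a2 was 0.15 ± 0.17 and 0.14 ± 0.14 there, and 7 of 8 spleens lay above 0.

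Col3a1, the chain of collagen III of reticular fibres, had the largest difference between the genotypes in liver. It lay at -0.15, -0.12, 0.13 and -0.23 in the wildtype livers and at 0.20, -0.01, 0.32 and 0.52 in the Dll1 livers. The groups overlapped, and the Dll1 mean of 0.26 (SE 0.09) had an unadjusted p of 0.0221 and an adjusted p of 0.784 in limma. The difference between the genotypes was 0.35 (95% interval 0.10 to 0.61, adjusted p = 0.934), and with the Cy3 arrays turned it lay at -0.31 and passed (adjusted p = 0.0195 in limma). In spleen Col3a1 averaged 0.20 ± 0.38 and 0.30 ± 0.64. Col27a1 lay above 0 in 7 of 8 livers, at 0.10 ± 0.17 and 0.15 ± 0.11, with an adjusted p of 0.784 in Dll1 liver. The remaining members were Col2a1, Col5a1, Col5a2, Col5a3, Col11a1 and Col11a2. Of these Col5a3 had the lowest liver value (-0.16 in Dll1 mice) and Col11a1 the highest spleen value (0.48 in Dll1 mice). The Col11a1 probes in Dll1 spleen lay at 0.994 ± 2.028 (3 mice) and 0.065 ± 0.485 (4 mice). Its orientations there had opposite signs, at -0.17 in Cy5 and 0.85 in Cy3.

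Of the 11 other collagens, 10 were tested in liver. Their values ran from -0.05 to 0.11 in wildtype liver and from -0.10 (Col9a2) to 0.20 (Col16a1) in Dll1 liver. Col9a3, a chain of the cartilage collagen IX, averaged 0.10 over both genotypes in liver (SE 0.03, adjusted p = 0.289), above 0 in 6 of 8 livers. In wildtype spleen Col23a1, a membrane-spanning collagen, lay at 0.31 (adjusted p = 0.777). Col14a1, which binds to the surface of collagen fibrils, lay at -0.20, -0.31, -0.07 and -0.52 there. In the Dll1 spleens Col14a1 lay at 0.33, 0.12, -0.23 and 2.49, so that 1 mouse set its mean of 0.68 ± 1.23. Col9a2 was the lowest of these collagens in the spleen, at -0.33 over both genotypes (adjusted p = 0.649).

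Basement membrane collagens were led by Col4a2, the second chain of collagen IV. It lay at 0.56, 0.39, 0.44 and 0.04 in the wildtype spleens and at 0.16, 1.65, 0.22 and 0.51 in the Dll1 spleens. All 8 spleens lay above 0, but the spread was wide, and the mean of 0.36 (SE 0.12) in wildtype spleen had an adjusted p of 0.777. The orientations had opposite signs in wildtype spleen, at 0.88 in Cy5 and -0.17 in Cy3, and in Dll1 spleen they lay at 1.24 and 0.02. With the Cy3 arrays turned the wildtype mean was 0.53. Col4a1, whose gene lies head to head with Col4a2 and whose protein joins it in one trimer, lay near 0 in the same spleens, at -0.003 ± 0.17 and 0.10 ± 0.18. In liver Col4a2 was -0.02 ± 0.08 and -0.004 ± 0.13, and Col4a1 was -0.15 ± 0.23 and -0.17 ± 0.27. The low mouse of each genotype, at -0.50 and -0.57, was the one mouse with a value for 1 of the 4 probes, which lay at -1.88 and -1.75. The other 3 probes lay between -0.09 and -0.009 in wildtype and between -0.19 and -0.008 in Dll1 liver. Col18a1, the source of endostatin, averaged 0.02 in wildtype spleen. In Dll1 spleen it averaged 0.40 over 3 mice, of which mouse 2 lay at 1.34 and the others at -0.16 and 0.03.

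Laminins are cross-shaped trimers of an alpha, a beta and a gamma chain, and 7 chains were measured. Lamb1, the beta 1 chain of most basement membranes, fell in wildtype liver by 0.43 on the log2 scale (SE 0.047, adjusted p = 0.0214), the one member past the adjusted threshold. Its 4 wildtype livers lay at -0.54, -0.44, -0.30 and -0.45. The Dll1 livers lay at 0.01, 0.69, -2.18 and -0.50, on both sides of 0, with a mean of -0.49 ± 1.22, and the difference between the genotypes was not detectable with that spread. In wildtype liver Lamb1 was lower with the clone in either dye, at -0.64 in Cy5 and -0.22 in Cy3, and with the Cy3 arrays turned it lay at -0.21 (adjusted p = 0.0203).

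The Lamb1 call was narrow. Without wildtype mouse 1 or mouse 4 its adjusted p was 0.22 and 0.081, and with 1 spread estimated over all groups, the Dll1 livers included, it was 1. Its row is among those above position 20000 whose name is tentative. In spleen Lamb1 stood on the other side of 0, at -0.11, -0.10, 1.15 and 0.64 in wildtype and 0.41, 0.82, 0.44 and 0.21 in Dll1 mice (0.47, SE 0.17, adjusted p = 0.828).

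Lamc1, the gamma 1 chain that joins Lamb1 in the trimer, showed no such shift. It averaged -0.03 ± 0.05 in wildtype liver and 0.03 ± 0.02 in Dll1 liver, where all 4 mice lay between 0.01 and 0.06. Its 3 probes ranged from -0.17 to 0.06 in wildtype liver. Lamb3, another row with a tentative name, lay at -0.21 in wildtype liver (adjusted p = 0.369). The other laminins, Lama1, Lama4, Lamb2 and Lamc3, lay between -0.04 and 0.10 in wildtype liver. In spleen the lowest laminin was Lama1, at -0.35 in wildtype mice, where mouse 4 alone lay at -1.59, and -0.16 in 3 Dll1 mice. Nid2, which links laminin to collagen IV, lay at 0.58, 0.33, 0.61 and 0.03 in the wildtype spleens and at 0.11, -0.09, -0.32 and -0.24 in the Dll1 spleens. The means of 0.39 and -0.14 differed by -0.53 (95% interval -0.97 to -0.08, adjusted p = 0.871).

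Among the adhesive glycoproteins, fibronectin (Fn1), the bridge between cells, collagen and fibrin, was measured by 5 probes. It lay at -0.09, -0.02, -0.11 and 0.03 in the wildtype livers and at -0.04, -0.19, -0.08 and -0.16 in the Dll1 livers, so that 7 of 8 lay below 0. All 5 probes had a mean below 0 in both liver groups, from -0.11 to -0.002 in wildtype and from -0.27 to -0.04 in Dll1 mice. The Dll1 mean of -0.12 (SE 0.05) had an adjusted p of 0.784, and it lay at 0.0073 with the Cy3 arrays turned. In spleen Fn1 lay at 0.04 in both genotypes.

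Sparc, a secreted collagen-binding protein, lay at 0.42, 0.36, 0.28 and 0.15 in the wildtype spleens and at 0.05, 0.26, 0.12 and 0.38 in the Dll1 spleens. Its 3 probes had means of 0.46, 0.18 and 0.28 in wildtype and 0.19, 0.24 and 0.18 in Dll1 mice, and both dye orientations lay above 0 in both genotypes. Over both genotypes the mean was 0.25 (SE 0.08, 95% interval 0.07 to 0.44, adjusted p = 0.48, unadjusted p = 0.0117), and all 8 spleens lay above 0. With the Cy3 arrays turned it was 0.10. In liver Sparc was -0.02 ± 0.09 and 0.07 ± 0.08.

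**Figure D3:**
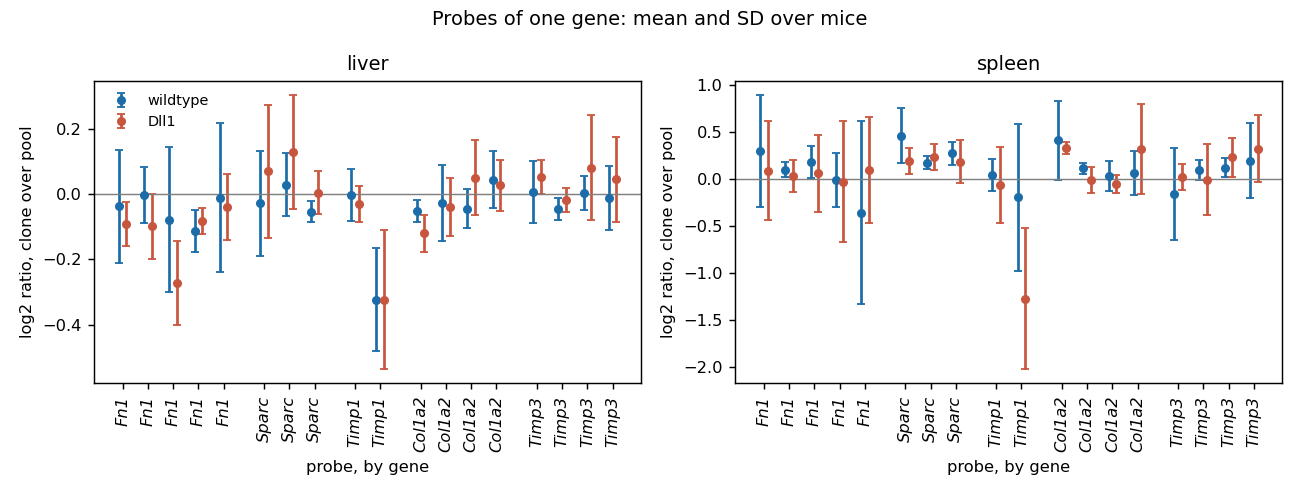
Mean and SD over mice of each probe of Fn1, Sparc, Timp1, Col1a2 and Timp3 in liver (left) and spleen (right), log2 ratio of clone over pool, blue for wildtype and red for Dll1 mice (4 mice, fewer where spots were missing). The Fn1 probes lie below 0 in liver and the Sparc probes above 0 in spleen, while the probes of Timp1 differ by about 0.3 in liver.

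Fibulins are elastic fibre and basement membrane proteins. Fbln5, needed to assemble elastic fibres, lay above 0 in all 8 spleens, at 0.34 ± 0.32 in wildtype and 0.18 ± 0.16 in Dll1 mice (mean over both 0.26, SE 0.10, adjusted p = 0.567). Its orientations had opposite signs in wildtype spleen, at 0.97 in Cy5 and -0.29 in Cy3. In Dll1 spleen they lay at 0.33 and 0.04. Fbln1 lay at -0.10 and -0.41 in the same spleens. Fbln7 lay at 0.12 in wildtype and -0.10 in Dll1 liver, a difference of -0.22 (95% interval -0.36 to -0.07, adjusted p = 0.934) that lay at 0.06 with the Cy3 arrays turned. Fbln2 was the remaining member. Thrombospondins, which bind calcium and matrix proteins, lay between -0.11 and 0.05 in both livers. In spleen Thbs4 was 0.05 ± 0.09 in wildtype mice and -0.63 ± 0.83 in Dll1 mice, where mouse 4 alone lay at -1.88 and the other 3 between -0.29 and -0.14. Without mouse 4 the Dll1 mean was -0.22.

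Lysyl oxidases stayed near 0. All 4 genes, Lox, Loxl1, Loxl2 and Loxl3, lay below 0 in both livers, but only between -0.06 and -0.002, and none passed an unadjusted p of 0.05 in any group. In spleen the values ran from -0.17 to -0.01 in wildtype and from -0.21 to 0.20 in Dll1 mice. Loxl3 lay at -0.17 over both genotypes (adjusted p = 0.678), below 0 in 7 of 8 spleens.

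Matrix metalloproteinases were represented by 12 genes. Their medians were -0.035 in wildtype liver, -0.051 in Dll1 liver, -0.008 in wildtype spleen and 0.122 in Dll1 spleen. Mmp3, Mmp7, Mmp8, Mmp12 and Mmp13 lie in one cluster on chromosome 9. Their stretches of 100 bases before the start of transcription are shown because their mean ratios in liver, as read here, stood on both sides of 0. None of them passed an adjusted p of 0.05 in any group, and Mmp3, Mmp7 and Mmp12 changed sign in wildtype liver with the Cy3 arrays turned. The names of the Mmp7 and Mmp12 rows are tentative, so their stretches may not belong to the rows measured. The sequences are RefSeq's for GRCm38.p6 on the plus strand, and 45 of the 70 members had an entry. Capitals mark TGAGTCA or its reverse complement TGACTCA, the consensus of the AP-1 factors of Fos and Jun, and TATAAA, the TATA box. Both motifs were searched on both strands, and no 2 matches overlapped.

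Mmp13, chr9:7272414-7272513: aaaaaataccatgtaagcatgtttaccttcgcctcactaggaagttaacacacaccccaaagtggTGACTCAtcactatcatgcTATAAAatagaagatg
Mmp12, chr9:7347274-7347373: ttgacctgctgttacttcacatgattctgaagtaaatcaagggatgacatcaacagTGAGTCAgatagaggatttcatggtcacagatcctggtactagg
Mmp3, chr9:7445722-7445821: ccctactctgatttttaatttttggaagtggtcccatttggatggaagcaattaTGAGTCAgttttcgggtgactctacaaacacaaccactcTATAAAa
Mmp8, chr9:7558329-7558428: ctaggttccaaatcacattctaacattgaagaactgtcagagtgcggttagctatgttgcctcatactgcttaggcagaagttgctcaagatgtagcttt
Mmp7, chr9:7691990-7692089: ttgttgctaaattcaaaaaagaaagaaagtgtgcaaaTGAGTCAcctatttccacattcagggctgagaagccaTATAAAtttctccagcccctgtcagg

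Each of Mmp13, Mmp12, Mmp3 and Mmp7 held the AP-1 letters in the window shown, and Mmp8 did not. Mmp12 and Mmp7 have a second start in the table whose window held neither motif. Among all 32851 windows of this length, 1.88% held TGAGTCA on either strand and 5.56% held TATAAA.

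In liver the neighbours stood on both sides of 0. Mmp7, matrilysin, lay at -0.69, -0.26, -0.52 and -0.74 in the wildtype livers and at 0.26, -0.61, -0.26 and -0.23 in the Dll1 livers. Mmp12, the macrophage elastase, lay at -0.55, -0.20, -0.45 and -0.55 in the wildtype livers and at -0.23, -0.32, 0.11 and -0.29 in the Dll1 livers. All 4 wildtype livers lay below 0 for both genes, and each missed the threshold narrowly in wildtype liver, Mmp7 at -0.55 (SE 0.076, adjusted p = 0.0515) and Mmp12 at -0.44 (SE 0.062, adjusted p = 0.0549).

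Wildtype mouse 2 was the wildtype liver nearest 0 for both Mmp7 and Mmp12. Leaving it out moved their means away from 0, to -0.65 and -0.52, which by itself favours a pass. Both then passed the threshold in limma (adjusted p of 0.012 and 0.0152). Neither passed without mouse 1, mouse 3 or mouse 4, where 0, 1 and 0 members and 0%, 0.0413% and 0.0354% of all features did. With 1 spread estimated over all groups neither passed in wildtype liver, beside 0% of all features. Their names are tentative and their rows adjoin. With the Cy3 arrays turned Mmp7 lay at 0.13 in wildtype liver (adjusted p = 0.129 in limma), and Mmp12 lay at 0.42 and passed on the other side of 0 (adjusted p = 0.000226). The Mmp12 value in wildtype liver came from the Cy3 arrays, at -0.86, against -0.01 on the Cy5 arrays. In Dll1 liver these were -0.17 and -0.19.

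Mmp3, stromelysin 1, lay above 0 in all 8 livers, at 0.14, 0.19, 0.18 and 0.06 in wildtype and 0.06, 0.01, 0.05 and 0.11 in Dll1 mice. The mean of 0.10 (SE 0.03) had an adjusted p of 0.203. In wildtype liver it was made of -0.10 in Cy5 and 0.38 in Cy3, so that with the Cy3 arrays turned it lay at -0.24 and passed on the other side of 0 (adjusted p = 0.00458 in limma). Mmp13, a collagenase, lay at -0.19 ± 0.18 and -0.07 ± 0.22 in liver. Mmp8, the collagenase of neutrophils, lay at -0.05 ± 0.04 in wildtype liver, below 0 in all 4, and at -0.19 ± 0.28 in Dll1 liver.

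**Figure D4:**
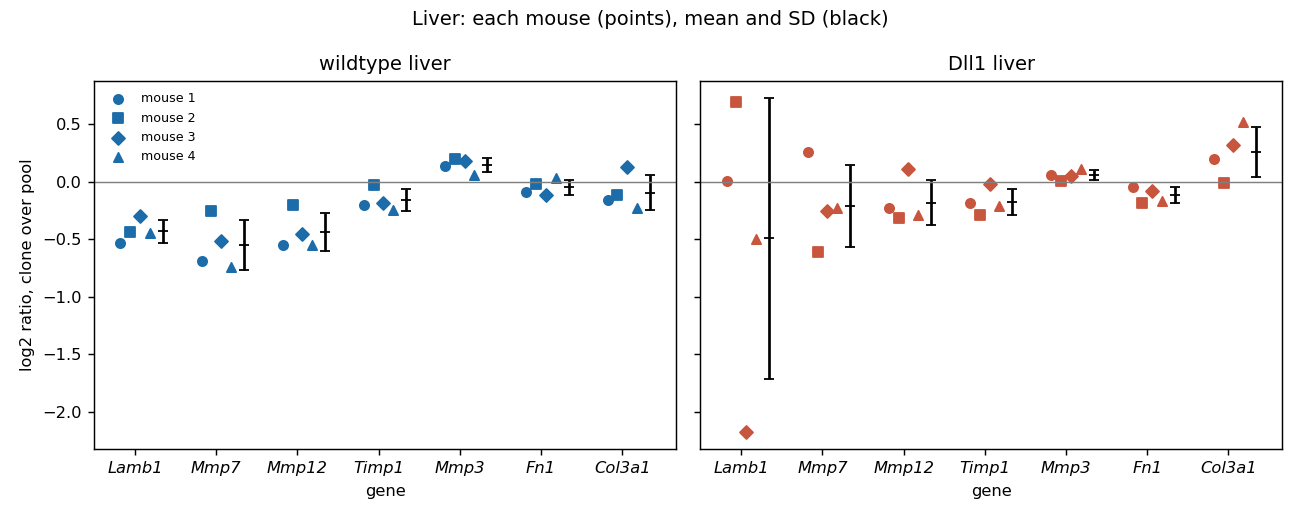
Log2 ratio of clone over pool in each liver (1 symbol per mouse) with the mean and SD over 4 mice (black), for 7 matrix genes in wildtype (left) and Dll1 mice (right). Lamb1, Mmp7, Mmp12 and Timp1 lie below 0 in all 4 wildtype livers, and Lamb1 spreads from -2.18 to 0.69 in the Dll1 livers.

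In spleen the same genes differed again. Mmp12 lay above 0 in all 8 spleens, at 0.20 ± 0.09 in wildtype and 0.28 ± 0.17 in Dll1 mice, but the orientations had opposite signs (0.59 in Cy5 and -0.18 in Cy3 in wildtype mice). Mmp3 lay at -0.37, -0.38, -0.24 and -0.61 in the wildtype spleens, all below 0 (mean -0.40, SE 0.10, adjusted p = 0.762). In the Dll1 spleens Mmp3 lay at -0.95, -0.01, 0.002 and 0.10.

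Mmp2, gelatinase A, and Mmp11, stromelysin 3, had the largest values of all members in Dll1 spleen. Mmp2 lay at 0.71, 1.02 and 0.63 in mice 1, 3 and 4, with no value in mouse 2, and at -0.24, -0.19, 0.09 and -0.07 in the wildtype spleens. The Dll1 mean of Mmp2 was 0.79 (SE 0.20, adjusted p = 0.828 in limma). Mmp11 lay at 0.48, 0.98 and 1.13 in the same Dll1 mice and at 0.30, 0.01, 0.04 and 0.01 in the wildtype spleens. Its Dll1 mean of 0.87 (SE 0.22) had an adjusted p of 0.828 in limma. With the Cy3 arrays turned these means were 0.42 and 0.18. With 1 spread estimated from all groups, both passed in Dll1 spleen, Mmp2 with an adjusted p of 0.00168 and Mmp11 with 0.00265, where the spread of the livers entered. In that fit 3 of 67 members (4.48%) passed in Dll1 spleen, below the 7.3% of all features, so passing did not set these genes apart.

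**Figure D5:**
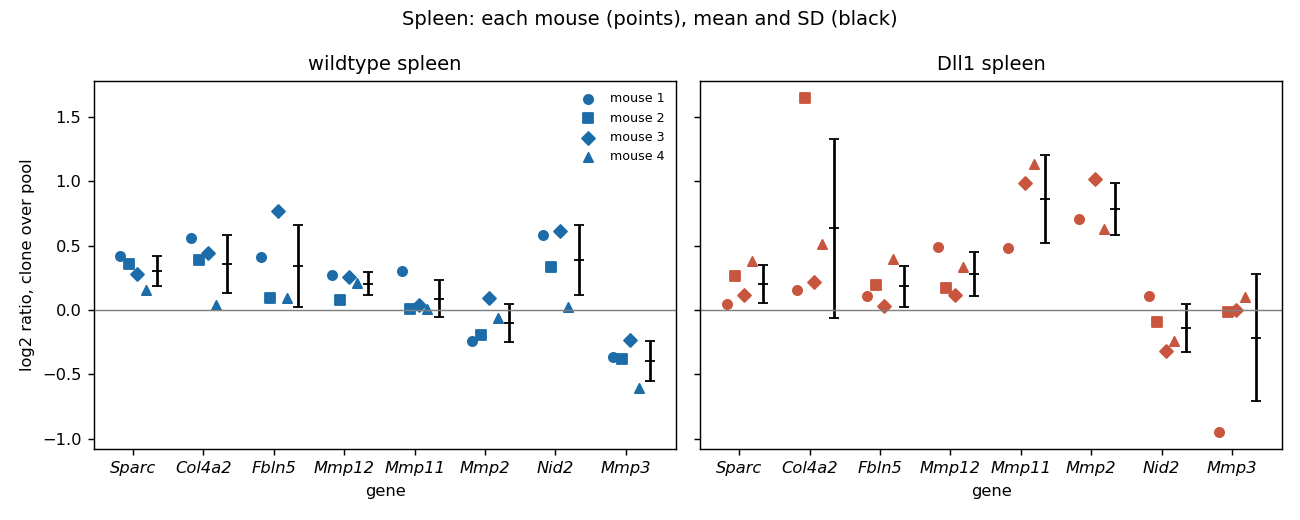
Log2 ratio of clone over pool in each spleen (1 symbol per mouse) with the mean and SD (black), for 8 matrix genes in wildtype (left) and Dll1 mice (right). Mmp2 and Mmp11 have 3 Dll1 mice, and Sparc, Col4a2, Fbln5 and Mmp12 lie above 0 in every spleen.

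Mmp14, the membrane-bound activator of pro-Mmp2, lay at -0.23 ± 0.33 in wildtype spleen and at 0.45 ± 0.31 (n = 3) in Dll1 spleen. Its 2 probes lay at -0.37 and 0.06 in wildtype spleen and at 0.16 (2 mice) and 0.69 (3 mice) in Dll1 spleen. In liver it was 0.05 ± 0.08 and 0.03 ± 0.11. Mmp2 was -0.06 ± 0.13 and -0.04 ± 0.07 in liver, and Mmp11 was 0.12 ± 0.08 and 0.01 ± 0.12. Mmp9, gelatinase B, stayed within 0.14 of 0 in all 4 groups, at 0.01, -0.002, 0.14 and 0.01. Mmp17, Mmp23 and Mmp24 were the remaining members.

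Of the inhibitors, Timp1 lay below 0 in all 8 livers, at -0.20, -0.02, -0.18 and -0.24 in wildtype and -0.19, -0.29, -0.02 and -0.21 in Dll1 mice. The mean over both genotypes was -0.17 (SE 0.037, 95% interval -0.25 to -0.09, adjusted p = 0.135). Its 2 probes disagreed. The probe above position 20000, whose name is tentative, lay at -0.32 in both liver groups, and the other probe lay at -0.002 and -0.03. The low Timp1 values thus rest on the tentative probe, and without it the Dll1 mean was -0.03. In spleen Timp1 was -0.04 ± 0.32 and -0.29 ± 0.61.

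Timp2 lay at 0.01 ± 0.09 and 0.04 ± 0.09 in liver. In spleen it spread from -0.66 to 0.51 in wildtype mice and lay above 0 in all 4 Dll1 mice (0.23 ± 0.10), while its 2 probes there lay at -0.12 and 0.59. Timp3, the inhibitor that binds to the matrix, lay at -0.01 ± 0.05 and 0.04 ± 0.06 in liver and at 0.06 ± 0.19 and 0.14 ± 0.15 in spleen. Timp4 lay at 0.15 in wildtype liver, above 0 in all 4 (adjusted p = 0.334), and at -0.04 in Dll1 liver, below 0 in all 4. The difference of -0.19 (95% interval -0.34 to -0.05) had an adjusted p of 0.934 and lay at 0.05 with the Cy3 arrays turned.

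ADAMTS proteases cut proteoglycans and procollagens, and 8 were measured. Their medians lay between 0.020 and 0.056 in the 4 groups. Adamts7 lay above 0 in all 4 Dll1 livers (0.22, SE 0.08) and Adamts1 below 0 in the 3 Dll1 livers that had a value (-0.20, SE 0.07), each with an adjusted p of 0.784. Adamts10 lay at -0.51 in Dll1 spleen (adjusted p = 0.828), with 2 mice above and 2 below 0. Its 2 probes there disagreed, at 0.40 ± 0.40 and -1.41 ± 1.68. Adamts18, with a tentative name, had the highest mean in wildtype spleen, 0.50 over 3 mice. Mouse 3 lay at 1.35 and the others at 0.07 and 0.09. The others were Adamts4, Adamts5, Adamts12 and Adamts16.

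The Dll1 clones were set against the wildtype clones, each relative to its own pool. No member passed the adjusted threshold for the difference in limma in liver or in spleen, as was true of 0% of all features in either organ. At an unadjusted p of 0.05, 5 of 69 members passed in liver (2 higher, 3 lower) against 4.87% of features, and 4 of 66 in spleen (3 higher, 1 lower) against 4.67%. In spleen Mmp2 had the smallest p in limma (0.00177), with a difference of 0.89 (95% interval 0.44 to 1.33, adjusted p = 0.871), and Mmp11 followed with 0.78 (95% interval 0.27 to 1.28, adjusted p = 0.871). Thbs4 had a difference of -0.68 (adjusted p = 0.871), with mouse 4 of the Dll1 spleens far below the other 3. In liver Mmp12 had a difference of 0.26 (95% interval 0.01 to 0.50, adjusted p = 0.934), which with the Cy3 arrays turned lay at -0.43 and passed on the other side of 0 (adjusted p = 0.00204 in limma).

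The values of the 2 genotypes ran in parallel to a degree. Over the 69 members measured in both livers the means correlated at r = 0.605 (rho = 0.459), and 46 (66.7%) had the same sign, beside r = 0.286 and 59.2% over 16900 features. Without Lamb1, Mmp7, Mmp12 and Timp1, r was 0.382. Over the 66 members in spleen r was 0.24 (rho = 0.311) and again 66.7% had the same sign, beside r = 0.083 and 53.2% over 15632 features. These are correlations across genes, which are not independent replicates, and the points share the array design and its dyes.

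Liver and spleen of the same mouse were then compared by the difference of their ratios. No member passed the adjusted threshold in limma in either genotype, where 0% of all features did. At the unadjusted threshold 8 of 68 members passed in wildtype mice (1 higher, 7 lower in liver) against 7.66% of features, and 2 of 66 in Dll1 mice against 5.07%. The median difference of the members was -0.0481 in wildtype and -0.118 in Dll1 mice, beside -0.0105 and -0.0132 for all features, and 43 of 68 and 43 of 66 members lay below 0.

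In wildtype mice Mmp3 had the largest positive organ difference, 0.54 (95% interval 0.29 to 0.79, adjusted p = 0.522), higher in liver in 4 of 4 mice. It lay at -0.36 with the Cy3 arrays turned. Mmp12 had a difference of -0.64 (95% interval -0.97 to -0.32, adjusted p = 0.522), lower in liver in 4 of 4 mice, and Lamb1 one of -0.83 (adjusted p = 0.612), likewise in 4 of 4. With the Cy3 arrays turned the Lamb1 difference was -1.01 and passed (adjusted p = 0.0302 in limma). Col14a1 had a difference of 0.29 (adjusted p = 0.666). The Dll1 mice had a Lamb1 difference of -0.96, again lower in liver in 4 of 4 (adjusted p = 0.8). Mouse 3 had a difference of -2.62 and the others -0.40, -0.13 and -0.70, and without mouse 3 the mean was -0.41. In Dll1 mice Mmp2 and Mmp11 differed by -0.81 and -0.85 (3 of 3 mice each, adjusted p = 0.8), and Thbs4 and Adamts10 by 0.66 and 0.51 with the same adjusted p. Without mouse 4 the Thbs4 difference was 0.23.

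Genes of the pathway outside the rule showed no adjusted call in any of the 4 groups. The 14 measured genes of collagen making (hydroxylases, chaperones and procollagen proteases) had medians of 0.009, 0.04, 0.072 and -0.045 in wildtype liver, Dll1 liver, wildtype spleen and Dll1 spleen. The 16 proteoglycans had medians of -0.015, -0.014, 0.077 and -0.113, and the 17 other matrix glycoproteins 0.021, -0.029, 0.035 and -0.038. The integrins, the cell's matrix receptors, had medians of -0.011, -0.02, 0.018 and 0.113. Of them Itga4 lay at -0.25 in wildtype and -0.26 in Dll1 liver (adjusted p of 0.192 and 0.784). TGF-beta signalling, a driver of collagen synthesis, had medians of -0.01, -0.018, 0.048 and 0.057. The 3 genes of the plasminogen system, which activates several metalloproteinases, lay at -0.056, 0.009, -0.251 and -0.371 in the median. Their median ranged over the mice from -0.615 to 0.057 in wildtype spleen. In Dll1 spleen mouse 2 alone lay at -1.425 and the others between -0.134 and 0.157.

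Among single genes of these lists in spleen, Postn (periostin, a collagen-binding glycoprotein) lay at 0.999 in Dll1 mice and Aspn (asporin, a small proteoglycan) at -1.06, each with an adjusted p of 0.828. Dcn (decorin, which coats collagen fibrils) lay at 0.56 in wildtype spleen (adjusted p = 0.777).

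Markers of the cells that could carry or dilute these transcripts were set beside these values. All 6 measured hepatocyte markers lay below 0 in both liver groups, with medians of -0.266 in wildtype and -0.076 in Dll1 liver. The marker median ranged over the mice from -0.34 to -0.09 in wildtype and from -0.20 to -0.04 in Dll1 liver. The 9 markers of stellate cells and fibroblasts, which make most of the collagens, had medians of -0.008 and 0.022 there, and the 9 of endothelium -0.029 and -0.041. In wildtype liver 6 endothelial markers lay below 0 and 3 above, from -0.211 to 0.128. Kdr lay at -0.18 and Cdh5 at -0.21 there (adjusted p of 0.273 and 0.241 in limma). The part of these shifts in the low values of Lamb1, Mmp7, Mmp12 and Timp1 was not tested.

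In spleen all 5 erythroid markers lay below 0 in both genotypes, with medians of -0.638 and -0.758. Their median ranged over the mice from -0.998 to -0.367 in wildtype and from -1.489 to -0.124 in Dll1 spleen. Neutrophil markers (8 genes) had medians of 0.037 in wildtype and -0.547 in Dll1 spleen, with 2 of 8 above 0 in Dll1 spleen. Macrophage markers had medians of 0.189 and 0.183, with 5 of 5 above 0 in wildtype and 3 of 4 in Dll1 spleen. Stellate and fibroblast markers lay at -0.011 and 0.051, endothelial ones at -0.023 and 0.066. Platelet markers lay at 0.046 and -0.085, mesothelial ones at 0.008 and 0.06, and pancreatic acinar ones at 0.125 and 0.114. The acinar median ranged over the mice from -0.192 to 0.858 in wildtype and from -0.183 to 0.3 in Dll1 spleen. In liver the neutrophil, macrophage, erythroid, platelet, mesothelial and acinar medians lay between -0.07 and 0.052. The 5 erythroid markers went both ways there, with 2 above and 3 below 0 in wildtype and 4 above and 1 below in Dll1 mice. In wildtype liver they ran from -0.56 (Hba-a1, adjusted p = 0.0186 in limma) to 0.135, with a median of -0.009. The hepatocyte markers had medians of 0.075 and -0.066 in spleen. Any part of the cells behind these markers in the spleen values of Sparc, Col4a2, Mmp2 and Mmp11 was not tested.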

How the data were processed

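The authors' deposited table gave 1 log2 ratio per row and array for 32 arrays. Labelling was indirect with Cy3 and Cy5, per the labels' protocols, while how spots were corrected and normalized is not given in the sources used here. As unit of the deposited values, log2 was read from the values. For the reference pool, the identifiers name 4 mice and the protocol states 6.

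Values above 9 in size, 1183 in all, were set to missing, and the largest kept was 8.34. Both arrays of a mouse were averaged where both had a value, then the probes of a gene, which gave 17060 features. Features with a value in at least 3 of 4 mice were tested with limma 3.58.1 in R 4.3.3 (lmFit, eBayes, two-sided, Benjamini-Hochberg over all features). Each group was fitted alone, the genotype comparisons per organ, and the organ comparison as paired differences within a mouse. The mouse identifiers in the labels pair the organs, and the deviations of the organs correlated at 0.002 to 0.093. Symbols come from the platform's 12771 annotated probes.

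Named were members past an adjusted p of 0.05, the 3 smallest p in each direction per group and organ mean, the 2 smallest per difference, and a list of core genes. The other genes printed were chosen after their values were seen. Members and lists, of cell markers and pathways too, were chosen with earlier results of these data known. Each fit was checked on simulated data. Depth of arrays is limited by their number. Alternatives covered the Cy3 direction, size limit, centring, scaling, missing values, probes, names, the spread and each mouse left out. Leaving out positions above 20000 was chosen after seeing the data.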

Additional observations from a re-analysis of the deposited data

Results flagged for a closer look

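Of 255 sets of a matrix gene in the 4 mice of a group, 22 had 1 mouse whose gap to the nearest other mouse, over the whole range, lay above the 95% critical value of Dixon's test for 4 samples. Chance marks about 1 in 20 sets.

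In Dll1 spleen these were Col23a1 (mouse 4 at 2.188), Lamb2 (mouse 4 at 0.854), Thbs4 (mouse 4 at -1.876) and Mmp3 (mouse 1 at -0.949). The other Thbs4 values lay between -0.287 and -0.139, and the other Col23a1 values between -0.001 and 0.116. In wildtype spleen they were Col6a2 (mouse 4 at -0.91), Mmp7 (mouse 2 at -0.53), Mmp11 (mouse 1 at 0.3) and Mmp8 (mouse 3 at 0.291).

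In wildtype liver they were Col13a1 (-0.278), Mmp24 (0.164) and Lama1 (0.118) of mouse 1, Lox (0.107) of mouse 2, Col11a1 (-0.044) and Lama4 (-0.032) of mouse 3, and Adamts1 (0.19) of mouse 4. In Dll1 liver they were Fbln5 (-0.156) and Col9a2 (0.075) of mouse 1, Fbln7 (0.014) of mouse 2, Fbln2 (0.242), Col23a1 (0.099) and Lama4 (-0.038) of mouse 3, and Col13a1 (0.403) of mouse 4.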

How the results depend on the processing

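The direction of the Cy3 arrays decided most. With these arrays turned, the members past an adjusted p of 0.05 numbered 33 in wildtype liver (47.8%, all features 56.8%), 2 in wildtype spleen (2.94%, 1.54%) and 29 in the liver mean (42%, 42.6%). They numbered 10 in the spleen mean (15.2%, 13.2%), 22 for the genotype difference in liver (31.9%, 41.6%) and 8 for liver minus spleen in wildtype mice (11.8%, 11%). Of 52 named values 25 changed sign. In wildtype liver these were Mmp3 (-0.24), Mmp7 (0.13) and Mmp12 (0.42), and in Dll1 liver Col3a1 (-0.083) and Fn1 (0.0073). In wildtype spleen they were Nid2 (-0.068), Mmp3 (0.12) and Col14a1 (0.14), and in Dll1 spleen Adamts10 (0.034). The liver mean had Mmp3 (-0.125), Col9a3 (-0.031), Mmp12 (0.21) and Mmp7 (0.11), and the spleen mean Mmp11 (-0.11), Col9a2 (0.091) and Loxl3 (0.037). Between genotypes they were Col3a1 (-0.31), Mmp12 (-0.43), Fbln7 (0.060) and Timp4 (0.046) in liver and Nid2 (0.21) in spleen. Between organs they were Mmp3 (-0.36), Col14a1 (-0.16) and Mmp12 (0.039) in wildtype and Adamts10 (-0.011) in Dll1 mice. Of the sign changes in the liver mean, Mmp3 and Mmp12 passed on the other side of 0 (adjusted p of 0.0441 and 0.00187), as did Col3a1 and Mmp12 between genotypes in liver and Mmp3 and Mmp12 in wildtype liver. Col27a1 passed in the liver mean at 0.14 (adjusted p = 0.0395). Under the other alternatives that gave named values, none of them changed sign.

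In wildtype liver, 0 members passed in limma with no size limit, arrays scaled, 1 fit over all groups, names as given or positions above 20000 left out, where 0 to 0.177% of all features did. With all 4 mice needed, each probe a feature or single arrays, 3 passed, a share of 4.41%, 2.7% and 4.35% against 0.231%, 0.247% and 0.531% of features. Lamb1 had an adjusted p of 0.0534 with no size limit and 0.0596 with arrays scaled. Leaving out 1 mouse gave 0 to 3 calls in wildtype liver, 0 without mouse 1 or 4 and 3 without mouse 2 (4.35%, all features 0.319%), and 0 to 1 in the liver mean, Mmp7 without Dll1 mouse 1 and Mmp12 without Dll1 mouse 3. With 1 fit over all groups 3 members passed in Dll1 spleen (4.48%, all features 7.3%), 5 in the spleen mean (7.58%, 4.54%), 2 for the genotype difference in spleen (3.03%, 0.557%) and 1 for liver minus spleen in Dll1 mice (1.52%, 0.0884%). Single arrays gave 3 in the liver mean (4.35%, 1.29%) and 1 for liver minus spleen in wildtype mice (1.47%, 0.189%). That fit took single arrays as observations, and arrays of 1 mouse correlated at -0.153 in wildtype liver and -0.323 in the liver mean. A correlation below 0 makes the error of these liver means smaller than for independent arrays, so these liver calls do not rest on the spread between mice alone. The cause of the moves under these alternatives was not tested.

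Without the replicate block of the mouse, 0 members passed for either organ difference (0.0973% of features in wildtype and 0% in Dll1 mice), and Mmp3 stayed at 0.54 (adjusted p = 0.106). With the title number as a replicate block, 0 passed for either genotype difference and Mmp2 lay at 0.86 in spleen. The same title number did not pair the samples, with correlations of -0.03 to 0.129.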
